A study of Mus musculus with 4 samples.

Results

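The cytosolic ribosome is built from ribosomal RNA and a large set of proteins, and the genes described here encode those proteins. A gene of the deposited feature list was taken as a member when its symbol was Rpl or Rps followed by a number, with an optional a, l or x, or Rpsa, Rplp0, Rplp1 or Rplp2. Symbols holding -ps were left out, and at least 1000 UMIs (unique molecular identifiers, 1 per captured RNA molecule) were required over all barcodes. Of 32285 genes, 80 had such a symbol and 77 were members, 31 of the small (40S) and 46 of the large (60S) subunit. The 3 genes under the minimum were Rpl10l with 0 UMIs, Rpl39l with 73 and Rpl3l with 204. The member with the fewest UMIs was Rps27l with 221374, followed by Rpl31 with 729496. Read to the letter, the rule leaves out a few proteins of the ribosome, among them Rps3a1 (2959725 UMIs), Fau (2078769), Rack1 (1405624) and Rpl36al (452611). The members lie on 19 chromosomes, 14 of them on chromosome 7 and 4 on the X chromosome.

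The cells were hematopoietic stem and progenitor cells (HSPCs) of the donor, marked by CD45.2, an allele of a leukocyte surface antigen. They came from C57BL/6 bone marrow 20 weeks after a competitive transplantation. In that assay donor and competitor marrow rebuild the blood of 1 host. Donors were wild type in 2 samples and heterozygous Srcap mutant in 2 samples. The labels do not say what the Srcap allele changes, and they call each sample independent without saying how many animals it holds. For every sample 20000 sorted cells entered droplet capture with the 10x 3′ chemistry, version 3.1, and all 4 samples were treated alike. The deposited matrix holds 4 libraries, told apart by a barcode suffix that no label ties to a sample. The wild-type and mutant libraries therefore cannot be told apart here, genotypes were not compared, and no p-value was computed. Values are given for libraries 1 to 4, or as their median and range.

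Ribosomal protein genes are among the most strongly expressed genes of any growing cell. Their mRNAs begin with a C and a run of pyrimidines, the terminal oligopyrimidine or TOP motif, through which the mTOR and LARP1 pathway holds back or releases translation of the whole family. In blood formation they are known for Diamond-Blackfan anemia, in which loss of 1 copy of a ribosomal protein gene causes failure of red cell production, and for the free 5S particle with Rpl5 and Rpl11, which binds Mdm2 and so raises p53.

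The bases around the annotated transcription start are shown for 5 members named in the results below, chosen after their values had been seen. Each stretch is 28 bases of RefSeq sequence on build GRCm38, 5′ to 3′ on the transcribed strand, and starts 10 bases before the annotated start. Capitals mark a C followed by at least 4 pyrimidines (C or T) within 5 bases of the start, and where several such runs match, the one nearest the start.
Rps27, chr3:90213631-90213658 (minus strand): cgctttcgctCCTTTCCggcggtgacga
Rps27l, chr9:66946076-66946103 (plus strand): cctccccgccgCCTCTatcccggaagtt
Rps9, chr7:3704031-3704058 (plus strand): cttgtctCTCTTTgtctcgggcctgagt
Rps24, chr14:24490668-24490695 (plus strand): gctggggtcCTTCCTTgcgcgttgatat
Rpl36a, chrX:134585644-134585671 (plus strand): cccaggcaccgcctataaacttccgttg
The match nearest the start begins at the annotated start of Rps27, 1 base after it in Rps27l, 1 base before it in Rps24 and 3 bases before it in Rps9. In Rps27, Rps24 and Rps9 further pyrimidines stand directly upstream of the capitals. Rpl36a has no such run within 5 bases of the start. Of the 57 members with a start in the RefSeq table, 12 (21.1%) had a match beginning exactly at the start, whatever precedes it, and 27 (47.4%) one within 5 bases. Among 26968 other genes the counts were 659 (2.44%) and 4966 (18.4%). Only the transcribed strand was searched, runs may overlap other motifs, and a match describes letters near an annotated start, not a measured mRNA end.

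After removal of barcodes with fewer than 500 genes or more than 10% mitochondrial UMIs, 41122 of 44151 barcodes were kept, 9026 to 12418 per library, and the median cell of a library held 9824 to 10226.5 UMIs. Cells were sorted into gates by the number of fixed marker genes with at least 1 UMI. The stem gate, for example, asked for 4 of 7 markers such as Procr, Mecom and Mllt3, and the uncommitted gate for 3 of 5 (Kit, Cd34, Cd48, Ly6a, Myb). No ribosomal protein gene took part in a gate. A gate is a range on a marker count and not a cell type: 4817 of 8211 stem-gate cells stood exactly at the minimum and 7948 cells fell 1 marker short. The 10 leading genes of the monocyte gate held 4 early granulocyte markers and 3 monocyte markers, so that gate stands for the markers it was cut on and not for monocytes. Of the kept cells 1528 (3.72%) met 2 gates and were left out, 3668 (8.92%) met none, and 35926 met 1. At least 20 cells in every library were found for 13 gates. By far the largest were the uncommitted gate with 17955 cells and the stem gate. The gates for mature B cells (231 cells), plasma cells (408) and macrophages (212) hold cells that the label HSPC does not cover. Among the kept cells, 178 barcode sequences occurred in more than 1 library.

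Over all kept cells, the 77 members' share of all UMIs was 32.9% in library 1, 29.5% in library 2, 32.9% in library 3 and 32.5% in library 4. Within single cells of library 1 the share ran from 26.3% (5th percentile) over a median of 33.7% to 40.4% (95th percentile). Small-subunit genes gave a median of 44.8% of the member UMIs. Per library the kept cells held 111226947 to 142792456 UMIs, and the exact binomial 95% interval of these shares, which covers counting error only, ran from 32.90% to 32.92% in library 3. UMIs of 1 cell are not independent draws, so the intervals understate the full error.

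By gate, the share was highest in cells of the erythroid gate, with 34.9%, 30.9%, 34.7% and 34.5% of UMIs in libraries 1 to 4 and a median of 34.6%. The stem gate followed at 33.8%, 29.8%, 34.5% and 34.5%, the lymphoid-primed gate at 34.0%, 30.6%, 34.4% and 33.8%, and the uncommitted gate at 33.5%, 29.9%, 33.5% and 33.4%. These gates overlapped: the erythroid gate was above the stem gate in 3 of 4 libraries and the stem gate above the lymphoid-primed gate in 2 of 4. The lymphoid-primed gate was above the uncommitted gate in 4 of 4, by 0.427 to 0.864 percentage points.

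Further down the order came the common lymphoid gate (median 33.2%), the early granulocyte gate (32.2%), the monocyte gate (31.4%) and the megakaryocyte gate (30.9%). The mature B gate had a median of 30.8%, the pro-B and pre-B gate 29.7%, the macrophage gate 28.6% and the conventional dendritic gate 28.0%. These shares take all states of the cell cycle together, and the gates differed in cycle state, as given below. Every neighbouring pair among these 12 gates had overlapping ranges over libraries. Within libraries, the early granulocyte gate was above the monocyte gate in 4 of 4, by 0.459 to 0.984 percentage points. The monocyte gate was above the megakaryocyte gate in 4 of 4 (0.00657 to 0.882 points), as was the mature B gate above the pro-B and pre-B gate (0.178 to 2.91). The remaining neighbours of this paragraph kept their order in 1 to 3 of 4 libraries. In the mature B gate of library 2, with 37 cells, the share was 30.0% with an interval of 29.7% to 30.2%.

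The plasma gate stood apart from every other gate in all 4 libraries, at 14.4%, 11.2%, 11.4% and 11.5%. It was lower than the conventional dendritic gate, its neighbour in the order, by 14.4 to 16.7 percentage points. Plasma cells secrete antibody, and the single immunoglobulin gene Igkc stood at 350964 CPM (UMIs scaled to a common total) in this gate. With mitochondrial, hemoglobin, immunoglobulin and marker genes taken out of the total, the plasma gate's share was 32.1%, 27.0%, 28.8% and 28.9%, with a median of 28.9%. In the mature B gate the same step moved library 3 from 29.8% to 35.9% and the other libraries to 34.2%, 32.2% and 34.2%. The medians of the conventional dendritic, monocyte and early granulocyte gates rose too, as given in the closing section. Each of them stayed above the plasma gate's 28.9%. The plasma gate's member UMIs per cell, a median of 1681 to 2082 by library, lay between those of the mature B gate (633 to 814.5) and the conventional dendritic gate (2616 to 2933.5).

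**Figure D1:**
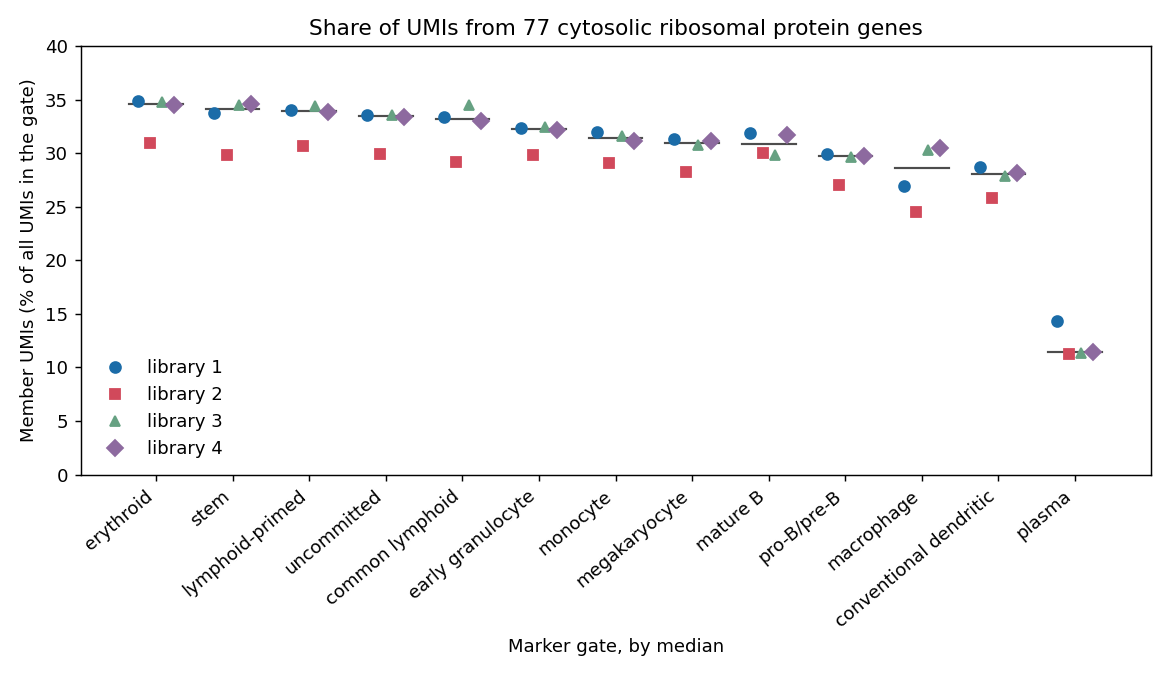
Share of all UMIs (percent, axis from 0) that came from the 77 members in 13 marker gates. Each point is 1 library, the line is the median of 4, and the plasma gate lies at 11.2% to 14.4% while every other point lies at 24.5% or more.

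The macrophage gate was uneven between libraries: its share was 27.0%, 24.5%, 30.3% and 30.4%, and the mean over single cells had a median of 21.8%. Its cells also differed in depth, the median cell holding 3619.5, 3604, 8419.5 and 6825 UMIs in libraries 1 to 4. Whether depth has a part in the low share of libraries 1 and 2 was not tested.

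Library 2 had the lowest share in 12 of the 13 gates, at 0.810 to 0.981 times the median of the other 3 libraries; in the mature B gate library 3 was lowest. In the stem gate this was a gap of 4.64 percentage points. Other gene groups moved in library 2 as well. The long non-coding RNA Malat1 was 1.26 times its median in the other libraries, and genes with a coding length of 2000 bases or more together 1.24 times (13.6% of UMIs against 10.7% to 11.2%). Genes of ribosome biogenesis were 1.07 times, translation factors and other TOP mRNAs 0.956 times, nuclear genes for mitochondrial ribosomal proteins 0.945 times and mitochondrially encoded genes 0.981 times. The part of these differences in the lower share was not tested, and which genotype library 2 holds is not known.

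Cycle states were set in the same way from 24 S-phase and 28 G2/M markers. Cells with at most 5 S and 3 G2/M markers were called resting, those with at least 12 S and at most 7 G2/M markers S phase, and those with at least 15 G2/M markers G2/M. In the stem gate the member share of resting cells was 36.6%, 32.5%, 37.1% and 36.8%. Stem-gate cells in S phase had 34.1%, 30.6%, 34.0% and 34.0%, and those in G2/M 30.2%, 26.9%, 30.1% and 29.7%. The share was lower in cycling cells in every library, with a median difference of -2.62 percentage points in S phase and -6.67 points in G2/M (range over libraries -7.04 to -5.65).

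The lymphoid-primed and uncommitted gates, the other gates with at least 15 cells of each state in every library, moved the same way. Gates with fewer cells did not all do so. Cells of the pro-B and pre-B gate in S phase had 33.6%, 32.1%, 31.0% and 34.1%, against 33.3%, 27.3%, 32.5% and 30.5% when resting. In G2/M they had 29.5%, 26.8%, 28.9% and 29.2%. Macrophage-gate cells had 30.6%, 26.0%, 31.0% and 32.1% in G2/M, against 17.8%, 16.2%, 29.8% and 24.8% when resting. In both gates a library held as few as 5 cells of these states. In the uncommitted gate the share was 35.6%, 31.9%, 35.6% and 35.5% in resting cells and 31.2%, 27.6%, 30.8% and 31.0% in G2/M, a median difference of -4.47 points. In the lymphoid-primed gate the median difference was -4.15 points in G2/M and -0.58 points in S phase, lower in 4 of 4 libraries for both. The number of member UMIs per cell went the other way: the median count in G2/M was 1.84 times that in resting cells of the stem gate, 2.10 times in the lymphoid-primed gate and 1.92 times in the uncommitted gate. Depth moved with the state, from a median of 6774 to 7810 UMIs in resting stem-gate cells to 15848 to 17117 in G2/M. Among cells with 5000 to 15000 UMIs the G2/M difference was -7.42 points in the stem gate and -4.75 points in the uncommitted gate. With markers counted after thinning every cell to 4000 UMIs it was -7.02 and -4.70 points. The S-phase difference of the uncommitted gate, -1.14 points, became -2.97 points with the thinned markers, and that of the lymphoid-primed gate -1.86. Gates differed in cycle state, with 992 of 1758 early granulocyte cells and 4280 of 17955 uncommitted cells in G2/M. The early granulocyte gate lay below the uncommitted gate in every library with all states together, but above it among resting and G2/M cells. Its resting cells had 36.0%, 32.8%, 38.4% and 36.5% (62 cells in all), and its G2/M cells 31.6%, 29.0%, 31.7% and 31.5%. In S phase the gate was above in every library but library 3 (34.3% against 34.4%).

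**Figure D2:**
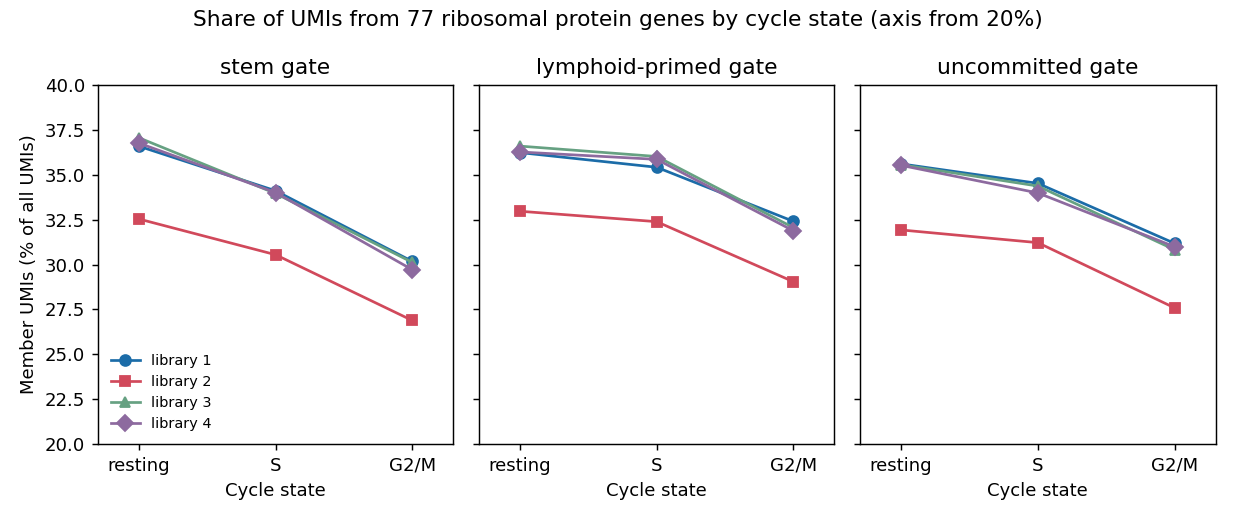
Share of all UMIs (percent, axis from 20) from the 77 members in resting, S-phase and G2/M cells of 3 gates, 1 line per library. All 12 lines go down from resting to G2/M, and library 2 lies lowest in every state.

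Single members differed widely in level. Counts of a 3′ assay record 1 tag per captured molecule whatever its length, so they were not divided by length, and they are given as CPM. Reads that fit a processed pseudogene as well as the gene may be lost in counting, which makes levels between members less certain than 1 member's level across cells. The 5 most abundant members over all cells together gave 12.2% of the member UMIs, and Rps24, Rpl13, Rpl32 and Rpl23 were among them. Rps24, of the small subunit, stood at 8553, 7500, 8578 and 8466 CPM. Rpl13, of the large subunit, stood at 8426, 7940, 8741 and 8462 CPM, so that the order of these 2 changed with the library. Rpl32 had a median share of the member UMIs of 2.41% and Rpl23 one of 2.21%. The lowest member was Rps27l, with 464, 410, 460 and 461 CPM and 0.140% of the member UMIs. The median member had 4081 CPM.

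The acidic stalk of the large subunit, which recruits the translation GTPases, has the members Rplp0, Rplp1 and Rplp2. Rplp1 was the most abundant of them, at 6504, 5869, 6474 and 6435 CPM. Rplp0 reached 4288, 4006, 4554 and 4354 CPM and Rplp2 3420, 3060, 3228 and 3381 CPM, so the order of the 3 genes was the same in 4 of 4 libraries and their ranges did not overlap. Of the 5S particle, Rpl11 stood at 4577, 4086, 4715 and 4504 CPM and Rpl5 at 2535, 2711, 3071 and 2846 CPM. Rpl5 was lowest in library 1, while Rpl11 was lowest in library 2.

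To see which members change their place within the family, each gene was expressed as a percentage of the member UMIs of a gate. On that scale most were steady. The median over 77 members of the range between the highest and the lowest gate was 1.32-fold, 61 stayed under 1.5-fold and 73 under 2-fold. The steadiest were Rpl6 (1.13-fold, 1.03% in the mature B gate to 1.16% in the megakaryocyte gate), Rpl11 (1.13-fold) and Rpl18 (1.15-fold), all of the large subunit. The plasma gate held the highest value for 17 members and the lowest for 22, more than any other gate. The uncommitted and early granulocyte gates held neither for any member.

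The member that varied most over gates was Rps27, a zinc-binding protein of the small subunit. It held 1.23%, 1.01%, 1.38% and 1.14% of member UMIs in the mature B gate of libraries 1 to 4. In the monocyte gate it held 0.524%, 0.426%, 0.430% and 0.481%, a 2.61-fold range of medians without overlap. Its paralog Rps27l, a target of p53, was second with 2.40-fold. Rps27l was high in the plasma gate (0.188%, 0.247%, 0.250% and 0.264%) and the monocyte gate (0.231% to 0.249%). It was low in the mature B gate (0.105%, 0.117%, 0.0648% and 0.101%) and the stem gate (0.0977% to 0.109%). The paralogs were thus at opposite ends in the mature B and the monocyte gate.

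Rpl41, the smallest member with a coding length of 75 bases, came next: 1.94%, 1.76%, 1.84% and 2.01% of member UMIs in the plasma gate against 0.965%, 0.871%, 0.821% and 0.869% in the stem gate. The only other member past 2-fold was the X-linked Rpl10, which joins the large subunit late in its assembly. It had a median of 1.42% in the plasma gate and 0.676%, 0.710%, 0.706% and 0.664% in the megakaryocyte gate, 2.05-fold less.

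**Figure D3:**
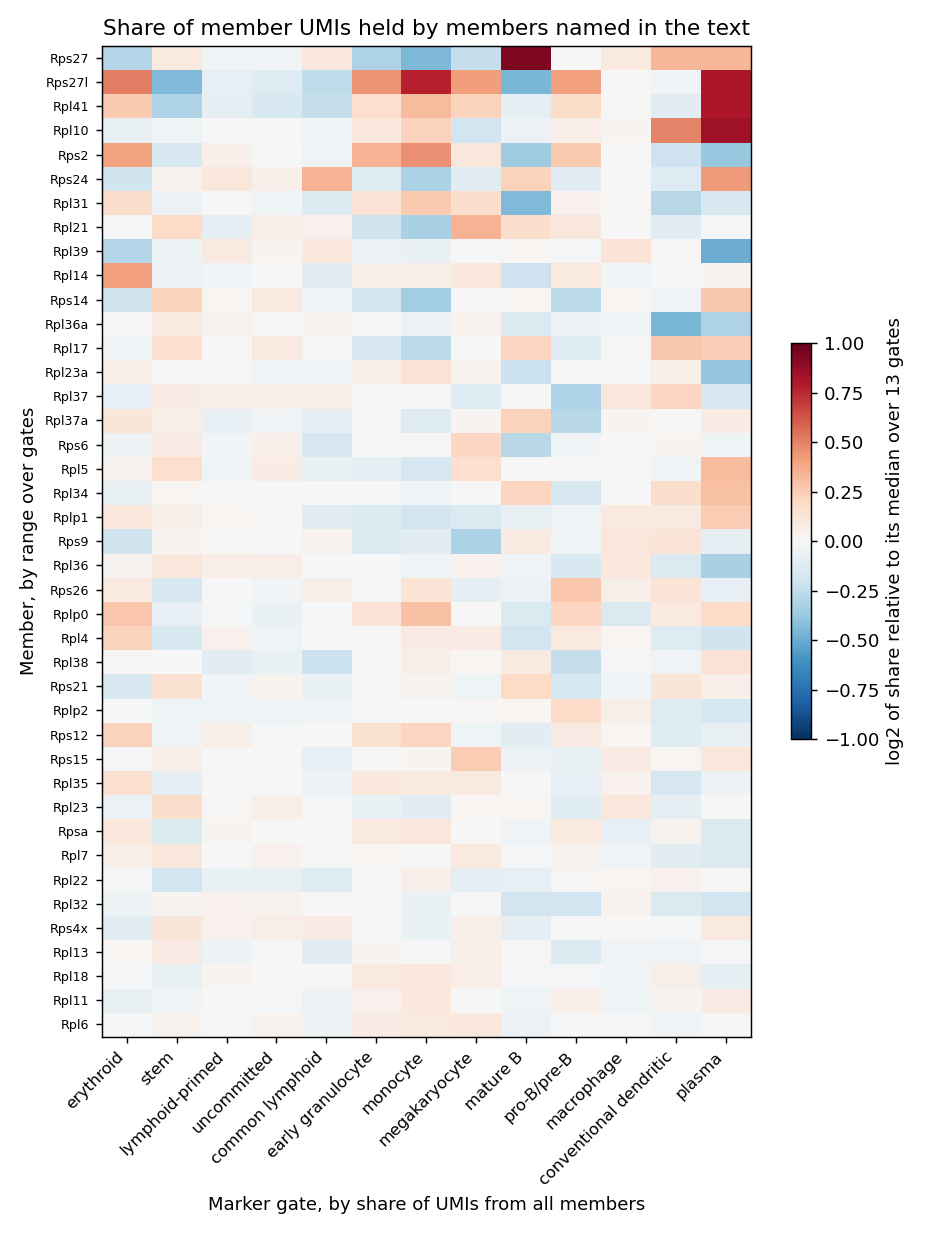
Share of member UMIs held by members described in the text (rows, from the widest to the narrowest range) in 13 gates (columns), as log2 relative to the gene's median over gates, from medians of 4 libraries. The strongest colours are Rps27 in the mature B gate and Rps27l, Rpl41 and Rpl10 in the plasma gate, while the rows at the bottom are pale.

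Next, members were compared between pairs of gates within each library, as the log2 ratio of CPM plus 1. A gene was called higher or lower where its CPM in one gate exceeded that in the other by 25% or more, in the same direction in 4 of 4 libraries. The rule is one of size and involves no test. All 77 members passed the filter of 5 CPM. The comparisons with uncommitted cells share the same resting uncommitted cells, so they are not independent of one another.

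In resting cells, no member separated the stem gate from the uncommitted gate. The uncommitted gate can hold cells that fell short of the stem minimum. With all cycle states together, the stem marker Hlf was among its 10 leading genes (336 CPM against 263 over all cells). The comparison is thus one of marker counts and not of stem against non-stem cells. Of 9950 genes, 6.63% were higher and 3.83% lower by the same rule, against 0 and 0 of 77 members. Of genes outside the family with at least 500 CPM, which are closer to the members in level, 3.96% were higher and 9.9% lower. The member median was 0.03 and that of all genes -0.02. Rpl21, of the large subunit, was 5626, 4827, 5690 and 5701 CPM in stem-gate cells and 4857, 4236, 4919 and 4995 CPM in uncommitted cells. Its log2 ratio of 0.20 was the highest of any member, and among the genes named by the ratio of the library closest to 0, Rpl5 (0.17), Rpl36a (0.17), Rps4x (0.15) and Rps14 (0.15) also lay above 0. At the other end stood Rps27l, with 285, 254, 293 and 278 CPM against 334, 297, 333 and 334 CPM and a ratio of -0.23 that reached -0.35 and passed the rule with thinned markers. Rps26 (-0.15), Rpl22 (-0.14), Rpl39 (-0.12) and Rps2 (-0.11) were next.

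Between the common lymphoid and the early granulocyte gate, 1 member was higher and 1 lower, while 15.5% of 9450 genes were higher and 14% lower. For other genes of at least 500 CPM these shares were 14.3% and 32.9%. The higher one was Rps24, a Diamond-Blackfan gene, with 10806, 9517, 11296 and 11084 CPM in the common lymphoid gate and 7586, 6631, 7678 and 7507 CPM in the early granulocyte gate. The ranges did not overlap, and the log2 ratio was 0.54. The lower one was Rps27l, at 388, 329, 428 and 400 CPM against 634, 570, 606 and 663 CPM and a ratio of -0.72. Rps27 went the other way from its paralog, with a ratio of 0.47; it passed the size limit in libraries 1, 3 and 4 and missed it narrowly in library 2, at 0.32 on the log2 scale. Among the other named members, Rps9 (0.23) and Rpl39 (0.17) lay above 0, and Rpl41 (-0.39), Rps2 (-0.37) and Rpl31 (-0.21) below.

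The gates of this comparison differ in depth (9712 to 11128 against 17099.5 to 19578 median UMIs per cell) and the common lymphoid gate had 49 to 95 cells per library. Within 5000 to 15000 UMIs Rps24 stayed past the rule and Rps27l, at -0.49, did not. In cells in G2/M of both gates both kept their calls. Without library 2 there were 3 higher members, among them Rps27, and without library 3 there were 4 lower ones. With thinned markers 4 were higher and 3 lower, and with 1 more marker required 2 and 4. At 1.5-fold neither remained. The member median, 0.03 against 0.04 for all genes, changed sign when all genes were centred on 0 (-0.03) with 1 more marker (-0.02) and in cells in G2/M of both gates (-0.07).

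Against the megakaryocyte gate, 6 members were higher in the erythroid gate and 0 lower, where 8.66% of 9161 genes were higher and 17.1% lower. Genes outside the family at 500 CPM or more were higher in 14.1% and lower in 14.1%. Rpl14, of the large subunit, had 4403, 4035, 4843 and 4719 CPM in the erythroid gate and 3225, 3047, 3383 and 3380 CPM in the megakaryocyte gate, a log2 ratio of 0.47 without overlap. Rps12 (0.42), Rps2 (0.42), Rplp0 (0.41), Rplp1 (0.41) and Rps26 (0.36) were the others. Of the acidic stalk, Rplp0 stood at 5460, 5231, 5822 and 5539 against 4124, 3908, 4216 and 4190 CPM, and Rplp1 at 7406, 6804, 7392 and 7407 against 5656, 5078, 5616 and 5535 CPM. Rplp2 had a ratio of 0.12. The 5S particle lay at 0.08 for Rpl11 and 0.02 for Rpl5, and the lowest member was Rpl21 at -0.22, ahead of Rpl39 (-0.12), Rps15 (-0.11), Rps14 (-0.05) and Rps6 (-0.05).

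Ratios above 0 in 4 of 4 libraries were found for 62 of 77 members and below 0 for 5, with a member median of 0.13 against -0.10 for all genes. Of all genes tested 22.5% were above 0 in 4 of 4 libraries and 35.9% below, and of genes outside the family at 500 CPM or more 47% and 37.6%. The count of 6 changed when cells were chosen by their UMIs. Median UMIs per cell were 15898.5 to 21647 in the erythroid gate and 16149 to 17827 in the megakaryocyte gate. Such a choice also leaves fewer cells, and the erythroid gate had only 65 to 96 per library. The part of depth or of cell number was not tested. Without the 8% of cells with the most UMIs in each library 1 member passed, Rpl14 at 0.39. Within 5000 to 15000 UMIs 1 passed as well, Rps9 at 0.37, and the ratio of Rplp1 was 0.20 and that of Rps2 0.22. The member median was 0.16 and 0.14 in these settings. At 1.5-fold 0 passed. In G2/M cells of both gates, 5 members passed.

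**Figure D4:**
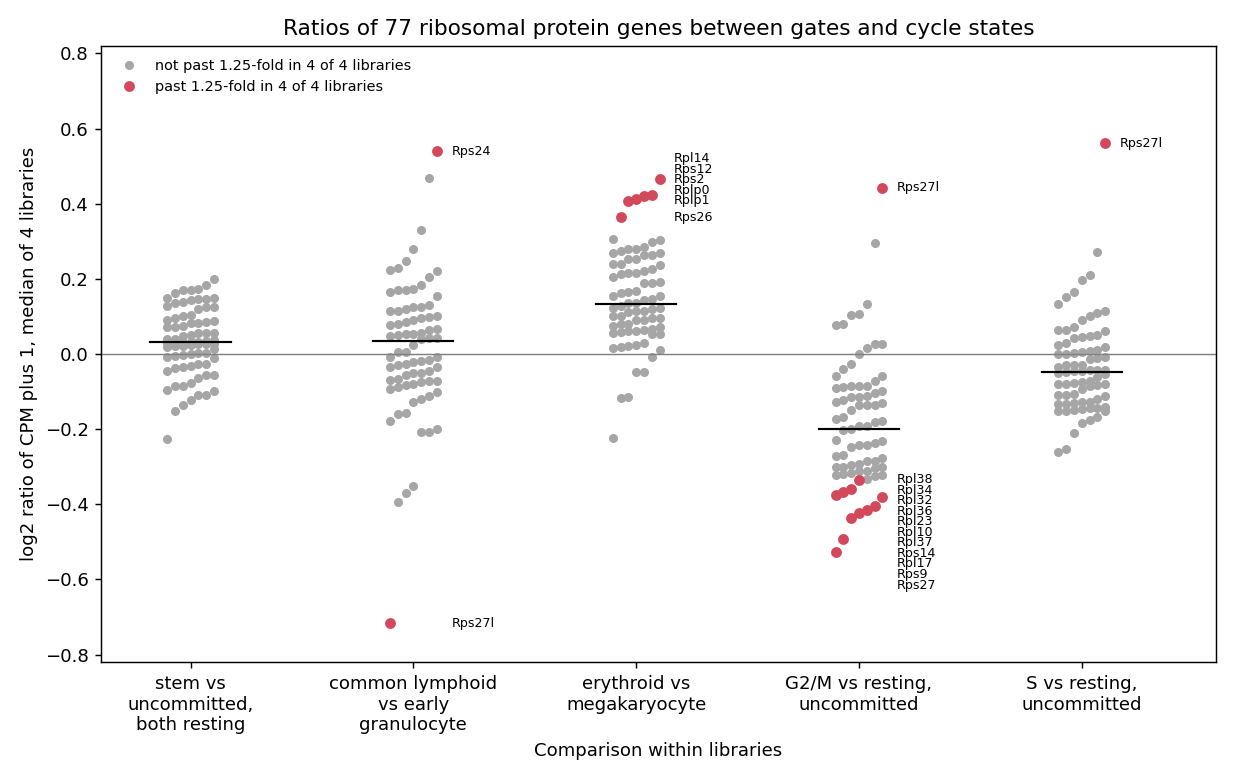
log2 ratio of CPM plus 1 of the 77 members in 5 comparisons, each point the median of 4 libraries for 1 gene and each bar the member median. Red points passed the size limit in 4 of 4 libraries: 0, 2, 6, 12 and 1 genes from left to right.

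In G2/M against resting cells of the uncommitted gate, 11 members were lower and 1 was higher. By the same rule 19.6% of 9779 genes were lower and 15.6% higher, and of genes outside the family at 500 CPM or more 15.3% were lower and 34.4% higher. The count of 11 of 77 is thus no larger a share than among all genes. The family median was -0.20 against -0.08, and 66 of 77 members were below 0 in 4 of 4 libraries, as were 46.1% of all genes and 38.9% of genes outside the family at 500 CPM or more. Rps27 was the lowest, with 1932, 1344, 1597 and 1825 CPM in G2/M and 2704, 1962, 2321 and 2612 CPM in resting cells, a log2 ratio of -0.53. Rps9, which lies near the mRNA entry of the small subunit, had 4385, 4322, 4444 and 4335 CPM against 6087, 6186, 6274 and 6070 CPM, a ratio of -0.49 with wide gaps between the groups. The others were Rpl17 (-0.44), Rps14 (-0.42), Rpl37 (-0.41), Rpl10 (-0.41), Rpl23 (-0.38), Rpl36 (-0.37), Rpl32 (-0.37), Rpl34 (-0.36) and Rpl38 (-0.33).

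The higher member was Rps27l, at 454, 405, 453 and 439 CPM in G2/M against 334, 297, 333 and 334 CPM in resting cells, a ratio of 0.44. The ratio was 0.21 within 5000 to 15000 UMIs and 0.13 with thinned markers, and no longer passed in either. Rpl41 (0.30), Rps2 (0.13) and Rpl4 (0.10) were among the next. The stalk members lay at -0.09 (Rplp0), -0.19 (Rplp1) and -0.20 (Rplp2), and the 5S particle at -0.27 (Rpl11) and -0.30 (Rpl5). Centring all genes on 0 left 4 members lower and made 2 higher, with a member median of -0.12. Asking for 1 more marker per gate left 7 lower, and at 1.5-fold 0 passed.

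In S phase against resting uncommitted cells the family median lay close to 0. Ratios below 0 in 4 of 4 libraries were found for 49 of 77 members and above 0 for 20, counts that were not made for all genes. Rps27l was again the 1 higher member, at 492, 438, 493 and 521 CPM against 334, 297, 333 and 334 CPM (log2 ratio 0.56), where 12.9% of 9747 genes, and 27.1% of other genes of at least 500 CPM, were higher. Here the ratio held at 0.53 within 5000 to 15000 UMIs and at 0.53 with thinned markers. In the other direction 0 members passed, against 16% of genes and 14.4% of those of at least 500 CPM; with thinned markers Rps9 passed at -0.39. Rps9 (-0.26), Rps27 (-0.25), Rps14 (-0.21) and Rpl23 (-0.18) were among the lowest, and Rpl41 (0.27), Rpl4 (0.21) and Rpl14 (0.17) followed Rps27l at the top. The member median of -0.05, against -0.09 for all genes, turned to 0.04 when all genes were centred on 0, where 2 members (Rps27l and Rpl41) were higher. With thinned markers the member median was -0.12, against -0.08 for all genes. Rps27 and Rps27l also had opposite signs between resting and G2/M cells of the stem gate. There Rps27 stood at 3050, 2139, 2538 and 2838 CPM in resting cells and at 1954, 1367, 1594 and 1764 CPM in G2/M, and Rps27l at 285, 254, 293 and 278 and at 403, 349, 424 and 407 CPM. Depth differed as well, with a median of 6774 to 7810 UMIs in resting and 15848 to 17117 in G2/M stem-gate cells. For single members of the stem gate, cells of like depth were not compared.

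Paralogs outside the naming rule were read beside 3 further members, Rpl22, Rpl36a and Rpl7. Rpl22, a large-subunit protein needed for T cell development, had a ratio of -0.29 in G2/M, and its paralog Rpl22l1 one of 0.14. In the conventional dendritic gate Rpl22l1 stood at 542, 493, 603 and 623 CPM, against 1170, 1007, 1197 and 1248 CPM in the uncommitted gate. For Rpl22 the values were closer, 2362, 1935, 2111 and 2307 against 2610, 2137, 2426 and 2446 CPM. Rpl36a had ratios of 0.08 between the common lymphoid and early granulocyte gates and of -0.18 in G2/M, while Rpl36al was lower in the common lymphoid gate (-0.69, past the rule) and at 0.15 in G2/M. Rpl7l1 was also lower in the common lymphoid gate (-0.54), and its counterpart Rpl7 was at -0.02. Not every paralog parted from its counterpart. Rps27rt, with 17969 UMIs in all, had ratios near those of Rps27. They were -0.50 (past the rule) against -0.53 in G2/M and -0.33 against -0.25 in S phase. In the common lymphoid gate they were 0.48 against 0.47. Of the proteins outside the naming rule, Rack1 was higher in the erythroid gate (0.37) and Fau lower in G2/M (-0.33).

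Other genes of translation were taken from lists and counted by the same rule. Of 40 genes of ribosome biogenesis, the nucleolar factors that process ribosomal RNA and assemble subunits, 26 were higher in S phase and 12 in G2/M, with 0 lower in both. Higher in S phase were 12.9% of all genes and 27.1% of genes outside the family at 500 CPM or more, and in G2/M 15.6% and 34.4%. Lower were 16% and 14.4% in S phase, and 19.6% and 15.3% in G2/M. The medians of the biogenesis genes were 0.52 and 0.21, against member medians of -0.05 and -0.20. Nop56, a core protein of the box C/D particles that guide rRNA methylation, had a ratio of 1.17 in S phase and 0.75 in G2/M. Of 24 translation initiation factors 10 were higher and 1 lower in S phase, with Eif3b at 0.73 and the helicase Eif4a2 at -0.48. Of 78 mitochondrial ribosomal proteins 24 were higher in S phase and 33 in G2/M, where 1 was lower (Mrpl52, -0.54). Translation factors and other TOP mRNAs, which share the start motif with the members, were mixed in G2/M, with 3 higher and 4 lower of 24, against 15.6% and 19.6% of all genes, and a median of -0.12. Gas5, a non-coding RNA host gene with a TOP start, was at -0.89 and the histone chaperone Nap1l1 at 1.09.

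Between the erythroid and megakaryocyte gates 11 of 40 biogenesis genes and 12 of 78 mitochondrial ribosomal proteins were higher and 0 lower, with Npm3 at 0.99 and Mrpl52 at 1.33, where 8.66% of all genes and 14.1% of those outside the family at 500 CPM or more were higher. In the same 2 sets 17.1% and 14.1% were lower. In the common lymphoid gate against the early granulocyte gate the same 2 lists had 15 of 40 and 33 of 78 genes lower and 0 higher, with medians of -0.53 and -0.56 where the members had 0.03. Lower there were 14% of all genes and 32.9% of those outside the family at 500 CPM or more, and higher 15.5% and 14.3%. In G2/M were 88 of 258 cells of the common lymphoid gate and 992 of 1758 of the early granulocyte gate. The part of cycle state or depth in these counts was not tested. Between stem-gate and uncommitted resting cells 0 of 40 biogenesis genes passed, and of the mitochondrial ribosomal proteins 0 were higher and 1 lower (Mrps28, -0.38). Of all genes 6.63% were higher and 3.83% lower there, and of those outside the family at 500 CPM or more 3.96% and 9.9%.

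For the 3 members with the widest movements, genes with the most similar profile were sought over 52 points, 13 gates in each of 4 libraries, among 2625 genes at 50 CPM or more; the 3 were picked after their values had been seen. Profiles were log2 of CPM plus 1, centred over gates within each library, and not shares of member UMIs. In the plasma gate Igkc alone stood at 350964 CPM, which leaves fewer CPM for all other genes. The part of this common drop in r was not tested. The points share their libraries and depths, so Pearson's r is a description. Rps27l was most like Atp5g1 (r = 0.95), Aarsd1 (0.94) and Mrpl51 (0.93), and Rpl41 was also among its 8 nearest genes (0.92). Rps24 was most like Rbm5 (0.94), Pnisr (0.94) and Bptf (0.93). Rps27 was most like Tpt1 (0.90), a TOP mRNA, and Tmod3 (0.89).

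Finally, single members were compared between the unlabelled libraries. Each member's percentage of the member UMIs in a library was set against the median of the other 3 libraries, and a departure was described where the log2 ratio was at least 0.2 the same way in all cells and in each of the 7 gates with at least 100 cells in every library. Of 77 members, 8 departed. By the same rule 10 of 126 genes (7.94%) departed in 1 or more libraries among those of at least 500 CPM that are neither members nor mitochondrially encoded, each taken as a share of their own summed UMIs, so the members' count is close to that background. In library 1, 6 were higher: Rpl37 (1.22% of member UMIs against 0.994%, 0.970% and 1.10%), Rpl37a, Rps21, Rpl39, Rpl36 and Rpl35, with log2 ratios from 0.24 to 0.30. Rpl5 was lower in library 1, with 0.770% against 0.920%, 0.933% and 0.877% (-0.26). Rpl23a was higher in library 2, with 0.949% against 0.717%, 0.776% and 0.773% (0.30). Libraries 3 and 4 had none. Just under the limit lay Rpl38 in library 1, at 0.21 in all cells and 0.18 in its lowest gate, and Rps27 in library 2, at -0.27 in all cells and -0.18 in the gate nearest 0. With 1 library left out the count was 1 without library 1 (Rpl23a in library 2), 10 without library 2, 5 without library 3 and 12 without library 4, of which 1, 5, 1 and 8 are among the 8 above. Without library 2, the 5 genes Rpl37a, Rpl35, Rps21, Rpl37 and Rpl36 departed in library 1 and in library 3. Without library 3, Rpl23a departed in both library 1 and library 2.

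These departures ran with the length of the coding sequence. In library 1 the 26 members under 400 bases had a median of 0.16, the 21 members of 600 bases or more -0.09. In library 3 the order was turned, at -0.11 and 0.06. Library 2 had -0.10 and 0.05 and library 4 0.07 and -0.05. Across the 77 members, which are not independent of each other, Pearson's r with log2 coding length was -0.76, 0.56, 0.75 and -0.70 in libraries 1 to 4, and Spearman's rho -0.83, 0.59, 0.85 and -0.71. Since each library is measured against the others, opposite signs between libraries are partly built in. The 6 genes higher in library 1 have coding lengths of 153 to 369 bases and Rpl5 one of 891. Rpl23a, of 468 bases, did not follow this order in library 2.

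Genes outside the family did not repeat the pattern of the members in libraries 1 and 3: 321 other genes under 400 bases had medians of 0.02 and 0.04 there. In library 2 they had -0.18, and 538 genes of 2000 bases or more had 0.26. In library 4 they had 0.05 and -0.02, the same order as the members. The part of transcript length, of library preparation or of genotype in these departures was not tested, and genotype and library cannot be told apart here.

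**Figure D5:**
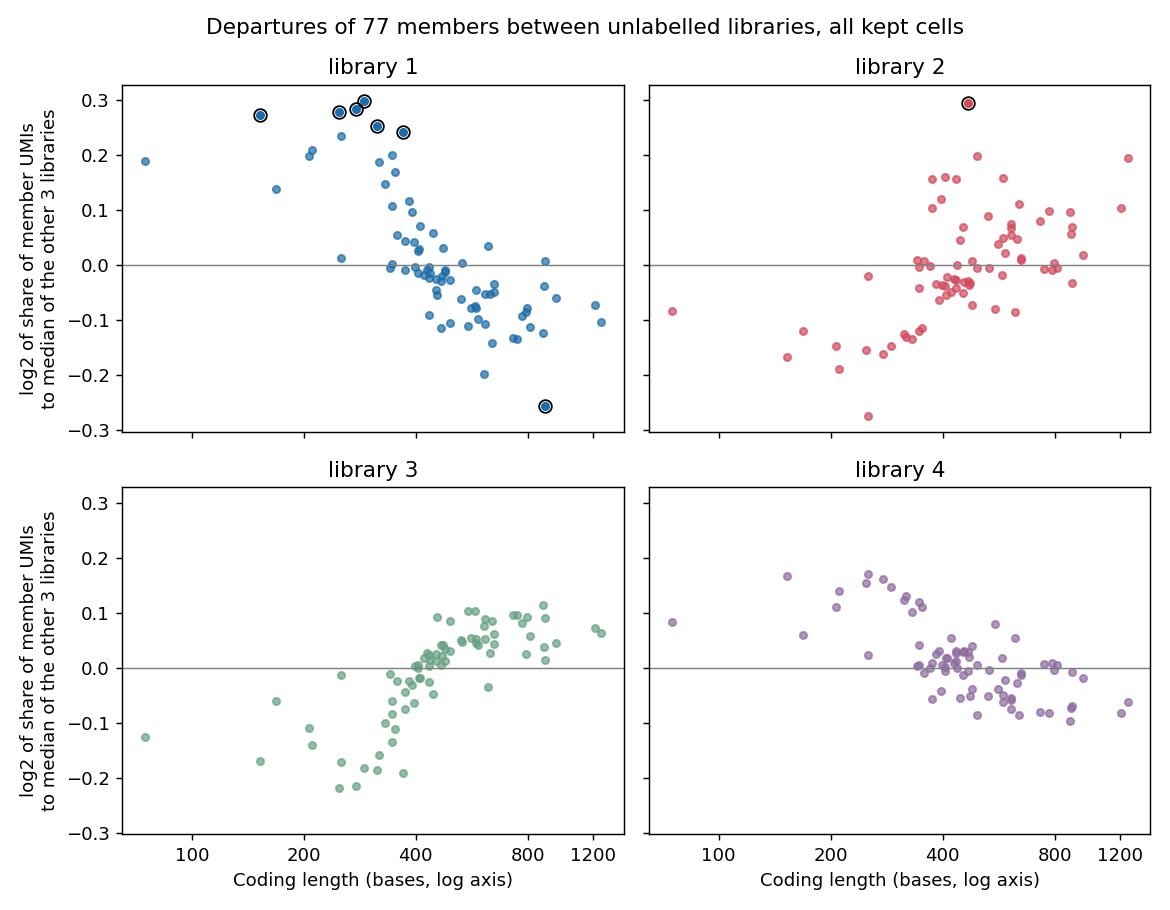
log2 of each member's share of member UMIs relative to the median of the other 3 libraries, against coding length (bases, log axis), 1 panel per library and 1 point per gene. Circled points are the 8 departures; the median of the members under 400 bases lies above 0 in libraries 1 and 4 and below 0 in libraries 2 and 3, while single genes lie on the other side.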

How the data were processed

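The authors deposited 1 aggregated matrix of UMI counts, whole numbers per gene and cell barcode with no scaling per cell, which the file headers ascribe to Cell Ranger 6.1.2. The mm10 build is named in the submitters' processing notes. Whether reads were evened out between libraries at aggregation, and how reads that fit several genes were treated, is not given in the sources used here. The 4 samples could not be matched to the 4 barcode suffixes, so the planned edgeR comparison of genotypes was not run, nor were its DESeq2, replicate and block alternatives.

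The 77 members, the gene lists and the markers were chosen with earlier results of these data known. Gate minimums, required markers (Dntt, Il7r with Ly6d, Siglech) and the order in which overlapping gates were read were set after marker counts and first member shares had been seen, as were the minimum of 20 cells, the 500 CPM backgrounds and the coding-length bins. Barcodes under 500 detected genes, or above 10% mitochondrial UMIs, were removed. No doublet caller was run: cells in 2 gates were left out, and an alternative left out the 8% of cells with the most UMIs in each library.

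UMIs were summed per library and gate. Ratios were taken as log2 of CPM plus 1 within a library, over genes with at least 5 CPM, a scale that understates changes of low genes. Named were, per ratio, the 5 highest and 5 lowest members by the library closest to 0 (all called members are also given), all departures, the 5 most abundant members, the 3 most and 3 least variable over gates, the stalk, the 5S particle, the paralogs, and up to 2 genes at either end of each other list. Some genes that this rule names are not reported here. Intervals are exact binomial (95%). Python 3.11.15, numpy 2.4.6, scipy 1.17.1, pandas 2.3.3 and matplotlib 3.10.9 were used, with coding lengths from GENCODE M21 and start sequences from RefSeq on GRCm38.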

Additional observations from a re-analysis of the deposited data

How the results depend on the processing

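No paired analysis was possible because no barcode suffix is tied to a sample, so the replicate numbers of the labels match no library; gate and cycle comparisons were made within each library. For the same reason the planned edgeR, DESeq2, block and single-replicate fits were not run. Per-cell means apply to shares only, and the denominator, pseudocount and low-value filter do not apply to departures. A share counted as moved when it shifted by more than its SD over the 4 libraries, a count when it changed by more than 1.5 times. That SD includes the lower share of library 2, so a shift that reorders neighbouring gates can still count as unmoved. No call reversed; the member medians whose sign changed are given with their comparisons. Of 870 values of named members in these settings, 27 lost a call and 15 gained one. Most named members carried no call in the main setting, so most of these values had none to lose. Thinned markers are counted after thinning 40050 cells to 4000 UMIs, which left out 185 to 332 shallower cells per library.

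Median shares that moved were those of the mature B gate (32.6% thinned, 32.0% with 1 more marker, 34.2% with the other denominator, 32.2% with the wider family), the plasma gate (28.9% with the other denominator), and the macrophage gate (21.8% as a mean over cells). With the other denominator and the wider family the early granulocyte gate had 34.1% and 33.6%, the monocyte gate 33.1% and 32.7%, and the conventional dendritic gate 30.1% and 29.4%.

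Differences between cycle states in the stem, lymphoid-primed and uncommitted gates were negative in every setting. In S phase against resting they moved to -3.48 points (stem, thinned), to -1.86 (thinned), -1.61 (1 more marker), -0.22 (5000 to 15000 UMIs) and -0.87 (other denominator) in the lymphoid-primed gate, and to -2.97 (thinned) and -1.50 (other denominator) in the uncommitted gate. In G2/M they moved to -7.42 (5000 to 15000 UMIs) and -7.39 (other denominator) in the stem gate, to -4.91 (thinned), -4.51 (5000 to 15000 UMIs) and -4.61 (other denominator) in the lymphoid-primed gate, and to -4.70 (thinned), -4.05 (1 more marker), -4.75 (5000 to 15000 UMIs) and -5.03 (other denominator) in the uncommitted gate.

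Counts of members also moved. Stem gate: 1 lower (Rps27l) when thinned. Common lymphoid gate: 4 higher and 3 lower when thinned, 2 and 4 with 1 more marker, 0 lower within 5000 to 15000 UMIs, 0 and 0 at 1.5-fold, 3 lower in the wider family, and 1 to 3 higher and 1 to 4 lower with 1 library left out. Erythroid gate: 1 higher without the 8% of cells with the most UMIs, 1 within 5000 to 15000 UMIs and 0 at 1.5-fold. G2/M: 0 higher when thinned, within 5000 to 15000 UMIs and at 1.5-fold, 7 lower with 1 more marker and 0 lower at 1.5-fold, and 2 higher and 4 lower with all genes centred on 0. S phase: 1 lower when thinned, 0 higher at 1.5-fold and 2 higher when centred. Departures ranged from 1 to 12 with 1 library left out. In the other settings these results stayed within those limits, and the cause of the shifts was not tested.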
